A study of Mus musculus with 36 samples.

Results

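The mouse optic nerve begins inside the eye wall without myelin and becomes myelinated a short distance behind the globe. The 4 libraries described here compare these adjoining stretches in untreated animals: 2 of the unmyelinated optic nerve (UON), cut next to the globe, and 2 of the myelinated optic nerve (MON), cut beyond the zone in which myelin begins, which was left out. They are 4 of the 36 libraries of the series and were chosen by their tissue and treatment labels alone. Each tissue is represented by 1 pool of 2 female and 1 pool of 2 male C57BL/6 mice of 2 to 4 months, with no transgene, no crush and no microbead injection, and UON and MON came from the same naive mice. Retina pools of those mice entered the fit to share its estimate of spread and are given for reference. The remaining libraries came from mice with optic nerve crush or experimental glaucoma.

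Retinal ganglion cell axons run uninterrupted through both stretches, so a bulk sample of either holds RNA mainly of the cells around the axons, with a small axonal share. In the unmyelinated stretch, astrocytes enclose the axon bundles, and the nerve passes through the sclera, meninges and the vessels that enter there. Further back, oligodendrocytes wrap the axons, and myelin, a lipid-rich membrane, has to be supplied with cholesterol and long-chain lipids. In bulk tissue, fewer cells of a type and less RNA per cell cannot be told apart.

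Gene counts were compared with edgeR's quasi-likelihood test with sex as a term, and a gene is called here when its Benjamini-Hochberg adjusted p was under 0.05 and its fold change over 2. Levels are given as FPKM (fragments scaled to transcript length and library size), always in the order female pool, male pool. Differences are log2 fold changes of UON minus MON, so negative values are higher in MON. The value after ± is an approximate standard error, worked back from the fold change and the F statistic of the test. Of 23685 genes tested, 2281 were called (9.63% of those tested), 1144 higher in UON (4.83%) and 1137 higher in MON (4.8%), with a median difference of -0.06 over all genes tested. The library totals were 49470691 and 47748759 counts for UON and 78054205 and 17757595 counts for MON, from a table in which a read pair adds about 4 counts. Genes with a count numbered 30367 and 23120 in the UON pools and 28930 and 27134 in the MON pools. The pools of a tissue correlated at 0.950 for UON and 0.923 for MON on log2 CPM (counts scaled to library size), against 0.918 and 0.877 between tissues within a sex, and sex-linked genes matched the label of each library. With 2 pools a group, the pools of UON and MON did not overlap for 53.8% of all genes tested, so separation of the pools is read against that share. Values are given for members of 55 gene lists and for the genes with the largest or most abundant differences, and members named with a call kept it in all 14 alternative analyses unless another count is given.

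Myelin genes had the highest share of called members of the 55 lists. All 18 markers of myelinating oligodendrocytes were called higher in MON, by -2.04 to -3.70 on the log2 scale (median -3.0). Mog, a glycoprotein on the outer face of myelin, stood at 58.3 and 42.6 FPKM in UON and 579 and 527 FPKM in MON (-3.54 ± 0.24, edgeR adjusted p = 0.00139). Both MON pools were well above both UON pools, in a comparison where pools did not overlap for 53.8% of all genes tested. Mag, the adhesion protein of the membrane next to the axon, read 164 and 124 FPKM in UON and 1088 and 973 FPKM in MON (-3.17 ± 0.26, edgeR adjusted p = 0.00141), and Opalin, a membrane protein of mature oligodendrocytes, read 11.5 and 7.63 FPKM in UON and 101 and 134 FPKM in MON (-3.68 ± 0.30, edgeR adjusted p = 0.00146). Fa2h, which hydroxylates the fatty acids of myelin galactolipids, had the largest difference of the list at 20.2 and 13.3 FPKM in UON and 227 and 191 FPKM in MON (-3.70 ± 0.22, edgeR adjusted p = 0.00139). Tmem63a, an ion channel opened by membrane stretch, had the smallest at 32.1 and 33.6 FPKM in UON and 138 and 125 FPKM in MON (-2.04 ± 0.21).

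The stretch labelled unmyelinated was not free of these transcripts. Mbp, myelin basic protein, stood at 8991 and 6359 FPKM in UON and 38608 and 34496 FPKM in MON (-2.35 ± 0.33, edgeR adjusted p = 0.00617), which made it the gene with rank 2 by FPKM in the female UON pool and rank 6 in the male UON pool, while it ranked 1 in both MON pools. In the retina pools it was at 23.8 and 21 FPKM. The 18 markers took 2.70% and 2.01% of all counts in UON against 13.9% and 12.1% in MON and 0.0144% and 0.0137% in retina. Mbp kept its call in 12 of 14 alternatives, with adjusted p = 0.39 under DESeq2 and 0.21 without the male UON pool, and Cldn11 in 11, with 0.288 under DESeq2 and 0.101 and 0.0605 without the female and male MON pool. The source of the myelin transcripts in UON was not tested.

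**Figure D1:**
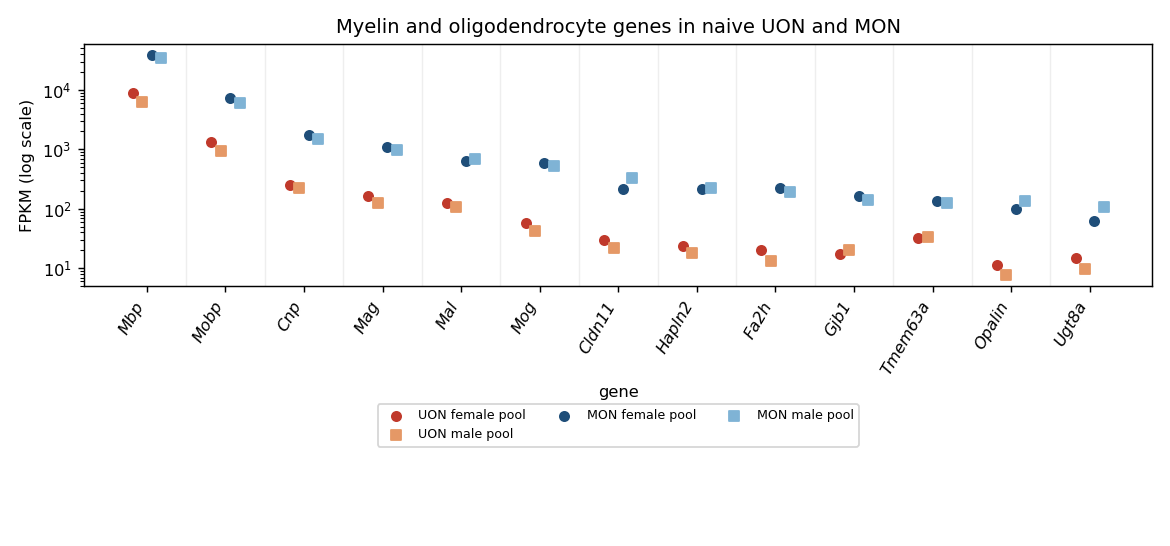
FPKM on a log scale of 13 of the 18 markers of myelinating oligodendrocytes in each naive pool, ordered by their mean in MON. Circles are female pools and squares male pools, and red and orange are UON and the blues are MON. For every gene shown both MON pools lie above both UON pools, with Mog at 579 and 527 against 58.3 and 42.6. Pools did not overlap, in either direction, for 53.8% of all genes tested.

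The factors that specify and maintain the oligodendrocyte lineage followed the same order. Of 12 transcription factors of the lineage, 9 were called higher in MON (75%) and 1 higher in UON (8.33%), with a median of -3.50. Over all genes tested the shares were 4.8% and 4.83%. Sox10, required for terminal differentiation, stood at 7.25 and 4.56 FPKM in UON and 92.5 and 101 FPKM in MON (-4.13 ± 0.38, edgeR adjusted p = 0.00171). Myrf, which switches on myelin genes, stood at 5.25 and 3.18 FPKM in UON and 44.5 and 55.3 FPKM in MON (-3.85 ± 0.33, edgeR adjusted p = 0.00156), and Olig1 at 30.1 and 18.9 FPKM in UON and 303 and 294 FPKM in MON (-3.71 ± 0.27, edgeR adjusted p = 0.00139). Olig2, a sister factor of Olig1, read 1.6 and 0.823 FPKM in UON and 9.04 and 19.1 FPKM in MON (-3.51 ± 0.63) and kept its call in 12 of 14 alternatives, with adjusted p = 0.0509 under DESeq2 and 0.103 without the male MON pool. Tcf7l2, a partner of Wnt signals in several glial cells, was the member higher in UON at 29.2 and 27.9 FPKM in UON and 14.4 and 7.88 FPKM in MON (1.27 ± 0.28), a call lost in the fit of all 36 libraries (adjusted p = 0.105) and without the male UON or male MON pool (0.126 and 0.0779). Olig2 ranged, with 1 pool left out, from -4.64 without the female UON pool to -2.54 without the male UON pool on the log2 scale.

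Markers of precursors and newly formed oligodendrocytes were called in both directions. Of 13 markers 7 were called higher in MON (53.8%), 1 higher in UON (7.69%) and 5 were not called (median -2.22). Over all genes tested the shares were 4.8% and 4.83%. Gpr17, a receptor of oligodendrocytes on the way to myelination, stood at 0.934 and 0.34 FPKM in UON and 19.9 and 11.7 FPKM in MON (-4.84 ± 0.50, edgeR adjusted p = 0.00243). Tnr, tenascin-R, read 0.661 and 0.252 FPKM in UON and 5.47 and 4.01 FPKM in MON (-3.62 ± 0.29, edgeR adjusted p = 0.00139), and Lhfpl3 read 2.13 and 1.8 FPKM in UON and 12.8 and 16 FPKM in MON (-3.02 ± 0.24). Pdgfra, the receptor that keeps precursors dividing, differed less, at 6.31 and 4.66 FPKM in UON and 10.8 and 7.83 FPKM in MON (-0.95 ± 0.21, edgeR adjusted p = 0.0352), which passed the p threshold but not the 2-fold limit. Bmp4 did not separate the tissues, at 7.63 and 2.52 FPKM in UON and 1.74 and 5.95 FPKM in MON (0.01 ± 0.91).

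The enzymes that build cholesterol were nearly all higher in MON. Of 20 enzymes from acetyl-CoA to cholesterol, 17 were called higher in MON and none higher in UON (median -1.80, against -0.06 over all genes tested and 4.8% called). Hmgcs1, which joins acetyl groups early in the pathway, stood at 37.2 and 36.4 FPKM in UON and 276 and 187 FPKM in MON (-2.68 ± 0.27, edgeR adjusted p = 0.0022). Fdft1, squalene synthase and the first step committed to sterols, stood at 11.3 and 8.54 FPKM in UON and 81.4 and 64.7 FPKM in MON (-2.96 ± 0.21, edgeR adjusted p = 0.00139). Acat2, Tm7sf2 and Ebp were not called, at -0.82 ± 0.22, -0.99 ± 0.38 and -0.54 ± 0.23. Of the 17 calls, 13 held in all 14 alternatives, and Pmvk, Nsdhl, Hsd17b7 and Sc5d did not, each losing its call without the female UON pool, with adjusted p between 0.0961 for Nsdhl and 0.244 for Hsd17b7. The retina pools, which hold no myelin, also expressed the pathway. The 20 enzymes summed to 502 and 446 FPKM in retina, 286 and 290 FPKM in UON and 1187 and 989 FPKM in MON. Hmgcs1 had a mean of 30.8 FPKM in retina, below both UON pools. The part that the number of oligodendrocytes plays in these differences was not tested.

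Genes that regulate and move cholesterol split in both directions. Of 19 such genes, 6 were called higher in MON (31.6%) and 4 higher in UON (21.1%), beside 4.8% and 4.83% of all genes tested. Insig1, which holds the sterol sensor in the endoplasmic reticulum, stood at 11.9 and 9.28 FPKM in UON and 65.8 and 30.4 FPKM in MON (-2.20 ± 0.33, edgeR adjusted p = 0.00815). Insig2, its relative, was higher in UON at 38.6 and 39.5 FPKM in UON and 12.1 and 13.3 FPKM in MON (1.71 ± 0.20, edgeR adjusted p = 0.00331). The exporters Abca1 and Abcg1 differed in opposite directions: Abca1, which loads cholesterol onto apolipoproteins, read 15 and 12.4 FPKM in UON and 4.16 and 2.84 FPKM in MON (1.92 ± 0.24, edgeR adjusted p = 0.00453), and Abcg1 read 3.63 and 2.78 FPKM in UON and 22.6 and 22.7 FPKM in MON (-2.95 ± 0.23, edgeR adjusted p = 0.00139). The UON and MON pools did not overlap for any of these 4 genes, which also held for 53.8% of all genes tested. Srebf2, the factor that drives the pathway, was higher in MON by less, at 35.4 and 40.8 FPKM in UON and 70.9 and 74.3 FPKM in MON (-1.08 ± 0.22), and Soat1, which esterifies cholesterol, was higher in UON at 21.6 and 16.2 FPKM in UON and 9.62 and 8.89 FPKM in MON (1.08 ± 0.27). Those last 2 calls were not stable: Srebf2 kept 10 of 14, with adjusted p = 0.201, 0.0991 and 0.0554 without the female UON, male UON and female MON pool, and Soat1 kept 9, with 0.221, 0.0602 and 0.166 without the female UON, female MON and male MON pool. Insig1 ranged, with 1 pool left out, from -2.73 without the male MON pool to -1.53 without the female MON pool on the log2 scale.

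**Figure D2:**
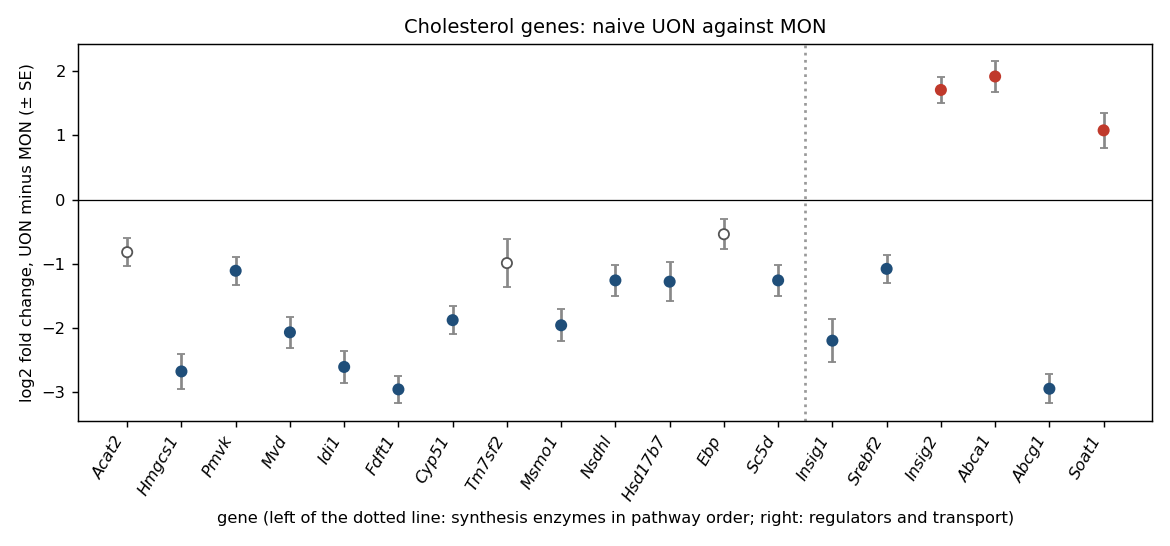
Log2 fold change of UON minus MON, with bars of ± 1 standard error, for 13 of the 20 cholesterol synthesis enzymes in pathway order and 6 of the 19 genes of cholesterol regulation and transport, those named in the text. Filled blue points were called higher in MON, filled red points higher in UON and open points were not called, and every enzyme shown lies below 0.

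Sterol enzymes are classically switched on by SREBP factors, which bind sterol response elements with the help of NF-Y at CCAAT boxes. Promoters from RefSeq (GRCm38.p6) were therefore searched over the 250 bases before the gene start, on both strands, and 15 of the 20 enzymes had a promoter in that table. CCAAT was present in 14 of these 15 genes and in 14 of their 18 promoters (77.8%), against 33.8% of all 32851 promoters. The sterol element TCACNCCAC, which does not overlap CCAAT, was found in 1 of the 18 (5.56%), that of Hmgcs1, against 1.05% of all. A match is a description of letters and not evidence of binding, and the search was made after the differences were known. The stretches below show where these letters lie in 5 of the enzymes higher in MON, with the matches in capitals (ATTGG is CCAAT on the other strand). Each is written 5′ to 3′ along the gene's strand.
Hmgcs1: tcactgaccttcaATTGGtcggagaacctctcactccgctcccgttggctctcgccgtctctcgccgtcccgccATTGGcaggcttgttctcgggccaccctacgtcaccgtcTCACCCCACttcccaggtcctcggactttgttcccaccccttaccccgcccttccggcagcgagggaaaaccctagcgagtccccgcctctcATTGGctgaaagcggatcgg
Idi1: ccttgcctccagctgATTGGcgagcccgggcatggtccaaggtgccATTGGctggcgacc
Mvd: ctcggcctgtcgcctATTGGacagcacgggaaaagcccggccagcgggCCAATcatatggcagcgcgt
Cyp51: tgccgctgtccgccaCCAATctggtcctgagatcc
Msmo1: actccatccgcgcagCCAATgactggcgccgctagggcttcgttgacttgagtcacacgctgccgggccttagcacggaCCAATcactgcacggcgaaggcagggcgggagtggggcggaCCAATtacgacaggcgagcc
In GRCm38.p6 the printed stretch of Hmgcs1 is chr13:119690101-119690325 (plus strand), that of Idi1 chr13:8885546-8885605 (plus strand), of Mvd chr8:122443430-122443497 (minus strand), of Cyp51 chr5:4104707-4104741 (minus strand) and of Msmo1 chr8:64733614-64733753 (minus strand). Idi1, which makes the second of the isoprene building blocks, stood at 5.13 and 4.61 FPKM in UON and 30.7 and 23.3 FPKM in MON (-2.61 ± 0.25), and Mvd, which makes its substrate, at 7.43 and 7.76 FPKM in UON and 29.1 and 31.9 FPKM in MON (-2.07 ± 0.24). Cyp51, which removes a methyl group from lanosterol, stood at 12.7 and 13.3 FPKM in UON and 51.9 and 40.1 FPKM in MON (-1.88 ± 0.22), and Msmo1, a later demethylation step, at 38.5 and 41.4 FPKM in UON and 167 and 124 FPKM in MON (-1.96 ± 0.25). All 4 kept their calls in every alternative.

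Genes for other lipids of myelin were higher in MON where they were called. Of 19 genes of fatty acid and myelin lipid synthesis, 9 were called higher in MON and none higher in UON (median -1.09). Those 9 were 47.4% of the group, beside 4.8% of all genes tested. Ugt8a, which makes galactosylceramide, stood at 15.1 and 9.85 FPKM in UON and 63.1 and 107 FPKM in MON (-2.84 ± 0.34, edgeR adjusted p = 0.00371), and Gal3st1, which sulfates it, at 4.37 and 4.22 FPKM in UON and 31.6 and 36.8 FPKM in MON (-3.09 ± 0.27, edgeR adjusted p = 0.0016). Of the general enzymes of fatty acid synthesis, Fasn read 15.1 and 14 FPKM in UON and 42.3 and 42.4 FPKM in MON (-1.54 ± 0.21).

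Myelinated axons gather channels and adhesion molecules at nodes of Ranvier, where the sheath is interrupted, and in the flanking paranodes. Of 25 genes of these domains, 9 were called higher in MON (36%) and 4 higher in UON (16%), with a median of -0.43. Over all genes tested these shares were 4.8% and 4.83%. Toward MON, Cntn2, a contactin, stood at 9.55 and 6.26 FPKM in UON and 79.2 and 81.7 FPKM in MON (-3.51 ± 0.24, edgeR adjusted p = 0.00139), and Nfasc, neurofascin, at 14.9 and 11.5 FPKM in UON and 61.1 and 54 FPKM in MON (-2.21 ± 0.21, edgeR adjusted p = 0.00182). The link protein Hapln2, of the node's matrix, stood at 23.9 and 18.2 FPKM in UON and 212 and 224 FPKM in MON (-3.59 ± 0.57). The 4 members higher in UON were Sptbn4, Cntnap2, Nrcam and Gldn. Sptbn4, a spectrin of the nodal cytoskeleton, read 52 and 84 FPKM in UON and 4.89 and 2.07 FPKM in MON (3.90 ± 0.35, edgeR adjusted p = 0.00161), and Cntnap2, a cell adhesion molecule of the juxtaparanode, read 6.57 and 11.4 FPKM in UON and 0.345 and 0.314 FPKM in MON (4.28 ± 0.33, edgeR adjusted p = 0.00139). Gldn, gliomedin, which clusters channels at peripheral nodes, read 5.56 and 3.83 FPKM in UON and 0.498 and 0.499 FPKM in MON (3.14 ± 0.38, edgeR adjusted p = 0.0039). Sptbn4 in retina was at a mean of 2.13 FPKM, below both UON pools. Hapln2 ranged, with 1 pool left out, from -4.47 without the female UON pool to -2.92 without the male UON pool on the log2 scale.

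Astrocyte markers were called in both directions. Of 22 markers 3 were called higher in UON and 3 higher in MON (13.6% each way, beside 4.83% and 4.8% of all genes tested), with a median of -0.28, and their summed level was 8817 and 9643 FPKM in UON and 6902 and 5898 FPKM in MON. Gfap, the filament protein of astrocytes, stood at 3882 and 4751 FPKM in UON and 3424 and 2760 FPKM in MON (0.41 ± 0.32, edgeR adjusted p = 0.491), and Aldh1l1, a folate enzyme used as a pan-astrocyte marker, at 54.6 and 50.2 FPKM in UON and 46.5 and 27.3 FPKM in MON (0.51 ± 0.21, edgeR adjusted p = 0.195). Neither passed the test. Slc1a3, the glutamate transporter GLAST, was higher in UON at 1090 and 978 FPKM in UON and 258 and 155 FPKM in MON (2.33 ± 0.33, edgeR adjusted p = 0.00657), a 5.04-fold difference. Slc1a2, the glutamate transporter GLT-1, differed the other way at 10.7 and 9.67 FPKM in UON and 22.7 and 26.3 FPKM in MON (-1.31 ± 0.22, edgeR adjusted p = 0.0116), a call lost without the male UON pool (adjusted p = 0.11) and in the fit of all 36 libraries (0.0922). Slc6a9, a glycine transporter, was higher in MON at 11.5 and 9.38 FPKM in UON and 75.3 and 47.7 FPKM in MON (-2.30 ± 0.30, edgeR adjusted p = 0.00509). In the all-library fit the 3 astrocyte calls toward MON (Slc1a2, Ntsr2 and Hepacam) were lost, and 5 markers were called toward UON with DESeq2 and 6 with limma.

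Gap junction genes were called in both directions. Of 12 connexins, 3 were called in each direction (25% each way, beside 4.83% and 4.8% of all genes tested). The oligodendrocyte connexin Gjb1 read 17.7 and 20.6 FPKM in UON and 163 and 140 FPKM in MON (-3.04 ± 0.30). Gjc3, also of oligodendrocytes, read 9.85 and 6.16 FPKM in UON and 104 and 105 FPKM in MON (-3.69 ± 0.24, edgeR adjusted p = 0.00139). Of the astrocyte connexins, Gja1 was called higher in UON (2.16 ± 0.29, edgeR adjusted p = 0.00566) while Gjb6 was not called, at 41.1 and 30.2 FPKM in UON and 17.8 and 15.9 FPKM in MON (0.94 ± 0.33, edgeR adjusted p = 0.128). The other calls toward UON, Gjb2 and Gjc1, kept 12 of 14 alternatives each, with adjusted p = 0.0844 for Gjb2 without the female UON pool, 0.294 for Gjb2 in the fit of all 36 libraries, and 0.0542 and 0.0955 for Gjc1 without the male UON and male MON pool. Gjb2, a connexin of meninges and epithelia, read 18.7 and 9.17 FPKM in UON and 1.45 and 2.48 FPKM in MON.

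Water and potassium genes of astrocyte endfeet showed no common direction. Of 17 members of this group 3 were called higher in UON (17.6%) and 2 higher in MON (11.8%), with a median of 0.08. The shares of all genes tested were 4.83% and 4.8%. Aqp4, the water channel of endfeet, stood at 70.8 and 64.6 FPKM in UON and 160 and 113 FPKM in MON (-0.88 ± 0.27, edgeR adjusted p = 0.0969), and Kcnj10, the potassium channel beside it, at 26.4 and 25.6 FPKM in UON and 40.7 and 52.5 FPKM in MON (-0.91 ± 0.21, edgeR adjusted p = 0.0396). Both were lower in each UON pool than in each MON pool, and pools also did not overlap for 53.8% of all genes tested. Neither was called, Kcnj10 because its difference stayed under the 2-fold limit. Sntb1, a syntrophin of the dystrophin complex, was higher in UON at 5.21 and 4.22 FPKM in UON and 0.652 and 0.349 FPKM in MON (3.35 ± 0.33, edgeR adjusted p = 0.00217). Slc12a2, a sodium, potassium and chloride cotransporter, was higher in MON at 8.44 and 8.02 FPKM in UON and 35.8 and 38.3 FPKM in MON (-2.25 ± 0.20, edgeR adjusted p = 0.00171).

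Intermediate filaments give glia their shape. Of 9 intermediate filament genes 4 were called higher in UON (44.4%) and 1 higher in MON (11.1%), beside 4.83% and 4.8% of all genes tested. Their median was 1.41, and fewer were called toward UON without the male UON pool. Of the 5 main calls only that of Nes held in all 14 alternatives, and the largest, that of Krt19, belongs to an epithelial keratin and was lost in 2 alternatives. Nes, nestin, found in immature and reactive astrocytes, stood at 88.5 and 91.6 FPKM in UON and 16.7 and 11.4 FPKM in MON (2.63 ± 0.27, edgeR adjusted p = 0.00243). Vim, vimentin, read 1296 and 1555 FPKM in UON and 461 and 666 FPKM in MON (1.15 ± 0.29, edgeR adjusted p = 0.0522) and missed the threshold. The 3 sets of genes used to describe reactive astrocytes were partly higher in UON in this uninjured tissue. Toward MON 1 A1 gene was called (8.33%), beside 4.8% of all genes tested. Toward UON the calls were 4 of 13 pan-reactive (30.8%), 4 of 12 A1 (33.3%) and 5 of 13 A2 genes (38.5%), beside 4.83%. S1pr3, a sphingosine phosphate receptor, was the most abundant of them at 652 and 661 FPKM in UON and 131 and 73.7 FPKM in MON (2.67 ± 0.33, edgeR adjusted p = 0.00424), followed by Cp, ceruloplasmin, among the members that held in every alternative, at 142 and 191 FPKM in UON and 35.9 and 31.5 FPKM in MON (2.28 ± 0.28). DESeq2 called 8 pan-reactive genes, and the A2 count was 3 without the male UON or without the female MON pool and 2 in the fit of all 36 libraries.

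A few genes were far higher in UON than in MON, and some of them were close to absent from MON. Cartpt, a secreted neuropeptide precursor on chromosome 13 from 99898489 to 99901091, stood at 4443 and 3146 FPKM in UON and 6.06 and 9.42 FPKM in MON, a 450-fold difference (8.81 ± 0.41, edgeR adjusted p = 0.00139). Its retina pools were at 232 and 216 FPKM, below both UON pools, and it ranked 9 and 15 by FPKM in the female and male UON pools. Prss56, a serine protease on chromosome 1 from 87183313 to 87188405, stood at 95.2 and 130 FPKM in UON and 0.0832 and 0.0896 FPKM in MON (10.13 ± 0.48, edgeR adjusted p = 0.00139) with 4.63 and 2.81 FPKM in retina. Wt1, a zinc finger factor of mesothelium and kidney, stood at 4.36 and 3.38 FPKM in UON and 0 and 0 FPKM in MON. Neither MON pool held a count of Wt1. Its lower UON pool was 9.51-fold above a floor of 3 read pairs (12 counts) in the shallower MON pool. That floor was scaled by the library total alone and the UON value also by the normalization factors of the fit, so the fold is approximate and no strict bound. Esm1, an endothelial proteoglycan, read 112 and 93.9 FPKM in UON and 1.26 and 0.743 FPKM in MON (6.56 ± 0.45, edgeR adjusted p = 0.00139). Ecel1, a neuronal endopeptidase, read 17.1 and 18.7 FPKM in UON and 0.313 and 0 FPKM in MON (6.45 ± 0.93), and Orm2, an acute phase glycoprotein, read 11 and 16.3 FPKM in UON and 0.193 and 0 FPKM in MON (6.41 ± 1.19). In each of these genes except Wt1, whose MON pools held no counts, the lowest UON pool was above the highest MON pool by more than a factor of 10. Prss56 ranged, with 1 pool left out, from 9.69 without the male UON pool to 10.73 without the female UON pool, and Esm1 from 6.15 without the male MON pool to 7.21 without the female MON pool on the log2 scale. Ecel1 ranged, with 1 pool left out, from 5.47 without the male MON pool to 14.42 without the female MON pool, and Orm2 from 5.37 without the male MON pool to 12.59 without the female MON pool on the log2 scale. Ecel1 and Orm2 had no count in the male MON pool, so these fitted values without the female MON pool depended on the prior count and are no bound.

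Among the other genes with the largest differences toward UON, Clec18a (6.97 ± 0.71) held in all alternatives, while the calls of Ptgdr (7.37 ± 1.69), Krt19 (6.09 ± 1.3) and Ccdc33 (5.84 ± 1.12) did not. Ptgdr, a prostaglandin D receptor, kept 9 of 14, with adjusted p = 0.0531 at a minimum count of 50, 0.0581 with all 36 libraries, and 0.0522, 0.0748 and 0.116 without the female UON, female MON and male MON pool. Ccdc33 was lost without the female MON pool (0.0771). Krt19 was lost in the fit of all 36 libraries (0.106) and without the sex term (0.0686). Clec18a ranged, with 1 pool left out, from 6.34 without the male UON pool to 7.64 without the female UON pool, and Ptgdr from 5.54 without the female UON pool to 12.35 without the female MON pool on the log2 scale. Krt19 ranged, with 1 pool left out, from 4.72 without the female MON pool to 11.33 without the male MON pool, and Ccdc33 from 4.26 without the female UON pool to 7.19 without the male UON pool on the log2 scale. Ptgdr had no count in the male MON pool, so this fitted value without the female MON pool depended on the prior count and is no bound. Krt19 had no count in the female MON pool, so this fitted value without the male MON pool depended on the prior count and is no bound.

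Of the genes with the largest differences toward MON, Gpr17 is given above. Nkx2-9, a homeobox factor on chromosome 12 from 56611389 to 56613284, stood at 0 and 0.115 FPKM in UON and 7.75 and 8.53 FPKM in MON (-7.37 ± 1.22, edgeR adjusted p = 0.0169), a call that DESeq2 did not make (adjusted p = 0.162). Ddc, the decarboxylase that makes dopamine and serotonin, stood at 0.713 and 0.0289 FPKM in UON and 9.95 and 8.52 FPKM in MON (-5.19 ± 0.93, edgeR adjusted p = 0.0162). Dcc, the netrin receptor, was low in both tissues but higher in MON at 0.0756 and 0.0499 FPKM in UON and 1.45 and 0.984 FPKM in MON (-4.29 ± 0.39, edgeR adjusted p = 0.00171). Adgrb3, an adhesion receptor of synapses, read 0.0982 and 0.0411 FPKM in UON and 1.73 and 1.4 FPKM in MON (-4.50 ± 0.40), Rab33a 1.27 and 0.433 FPKM in UON and 15.7 and 18.8 FPKM in MON (-4.49 ± 0.51) and Susd5 0.42 and 0.142 FPKM in UON and 5.84 and 4.66 FPKM in MON (-4.37 ± 0.62). Atp7b lost its call in the fit of all 36 libraries (adjusted p = 0.0517), Sez6l by its fold with limma, and Elfn2 with limma (0.111) and without the male MON pool (0.0999). Nkx2-9 ranged, with 1 pool left out, from -12.26 without the male UON pool to -5.99 without the female UON pool, and Ddc from -7.59 without the female UON pool to -3.94 without the male UON pool on the log2 scale. Rab33a ranged, with 1 pool left out, from -5.38 without the female UON pool to -3.79 without the male UON pool, and Susd5 from -5.34 without the female UON pool to -3.68 without the male UON pool on the log2 scale. Nkx2-9 had no count in the female UON pool, so this fitted value without the male UON pool depended on the prior count and is no bound.

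**Figure D3:**
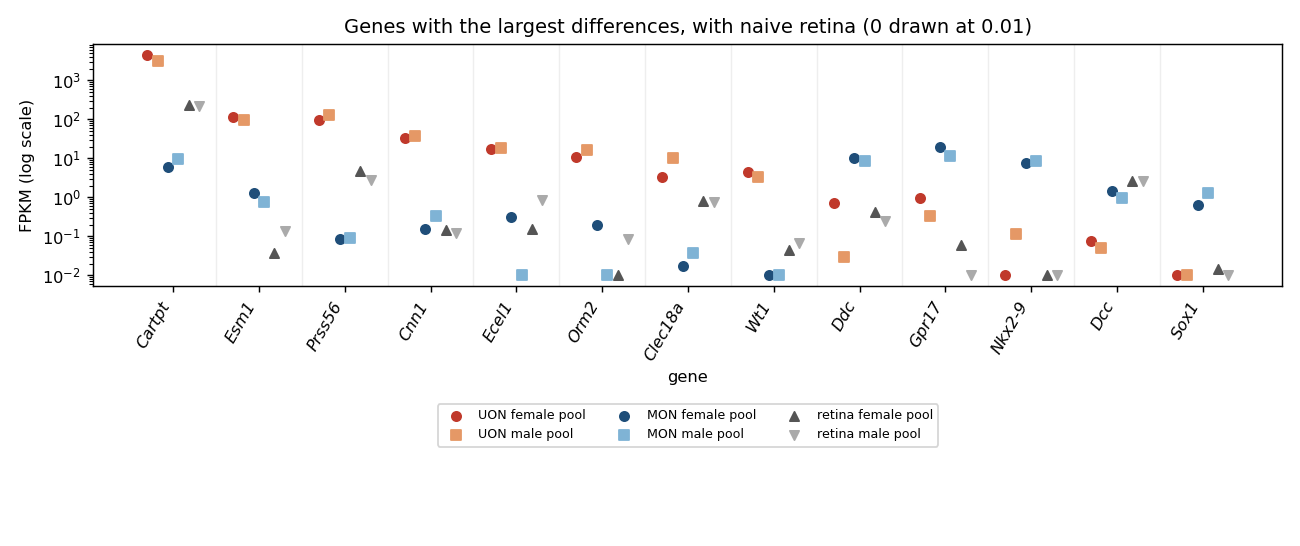
FPKM on a log scale in the 4 naive optic nerve pools and the 2 naive retina pools, for 8 genes higher in UON on the left and 5 higher in MON on the right, with values of 0 drawn at 0.01. Red and orange mark UON, the blues MON and the greys retina, and Cartpt lies at 4443 and 3146 in UON, 6.06 and 9.42 in MON and 232 and 216 in retina.

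Other genes were named for their level. Toward UON the 12 most abundant called genes by mean CPM were Sparc, Unc13c, Slc1a3, Cartpt, S1pr3, Gja1, Tsc22d1, Ednrb, Pros1, Dkk3, Pamr1 and Nbl1. Sparc, a secreted protein that binds collagen, stood at 3229 and 3837 FPKM in UON and 947 and 925 FPKM in MON (1.82 ± 0.29, edgeR adjusted p = 0.0111), a call lost without the male UON pool (adjusted p = 0.141). Pros1, the anticoagulant protein S and a ligand of TAM receptors, stood at 664 and 616 FPKM in UON and 62.7 and 37.6 FPKM in MON (3.64 ± 0.31, edgeR adjusted p = 0.00156). Ednrb, the endothelin B receptor, stood at 588 and 526 FPKM in UON and 134 and 79.5 FPKM in MON (2.37 ± 0.33, edgeR adjusted p = 0.0063), and Pamr1, a secreted protease-like protein, at 672 and 550 FPKM in UON and 81.3 and 53.7 FPKM in MON (3.17 ± 0.28, edgeR adjusted p = 0.00161). Unc13c kept 11 of 14 alternatives, with adjusted p = 0.272 and 0.0635 without the male UON and male MON pool and 0.0556 with the 4 nerve libraries alone. Nbl1 kept 10, with 0.0739 and 0.32 without the female and male UON pool, 0.0814 with the 4 nerve libraries and 0.188 with all 36. Toward MON the most abundant included Mbp, Fth1, Mobp, Aplp1, Cnp, Tubb4a, Mag, Qdpr, Mal, Car2 and Dbndd2. Fth1, the ferritin heavy chain that stores iron, stood at 5524 and 4310 FPKM in UON and 21710 and 18547 FPKM in MON (-2.30 ± 0.31), a call lost without the male UON pool (adjusted p = 0.113). Tubb4a, a tubulin of oligodendrocytes and neurons, stood at 110 and 106 FPKM in UON and 1313 and 1120 FPKM in MON (-3.56 ± 0.28, edgeR adjusted p = 0.00139), and Car2, a carbonic anhydrase of oligodendrocytes, at 135 and 88.5 FPKM in UON and 975 and 856 FPKM in MON (-3.16 ± 0.26, edgeR adjusted p = 0.00152).

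RNAs of retinal ganglion cells, which could reach both stretches within axons, did not share a direction. Of 20 such genes (median -0.52) 2 were called higher in UON (10%) and 4 higher in MON (20%), beside 4.83% and 4.8% of all genes tested. In the fit of all 36 libraries 2 were called toward MON, and the count toward UON fell when some single pools were left out. Nefh, the heavy neurofilament chain, was higher in UON at 24.6 and 40.6 FPKM in UON and 3.63 and 3.86 FPKM in MON (3.02 ± 0.28, edgeR adjusted p = 0.00176), with 15.8 and 16.6 FPKM in retina. Nefl, the light chain, was not called, at 26.1 and 33.9 FPKM in UON and 25.7 and 16.4 FPKM in MON (0.46 ± 0.31, edgeR adjusted p = 0.434). Tubb3, a neuronal tubulin, was higher in MON at 25.7 and 26.2 FPKM in UON and 153 and 159 FPKM in MON (-2.66 ± 0.21, edgeR adjusted p = 0.00141), as was Stmn3 at 3.55 and 4.29 FPKM in UON and 15.8 and 23.1 FPKM in MON (-2.36 ± 0.24). Of 16 tested neuropeptide and granin genes Cartpt and Scg2 were called toward UON and 4 toward MON, a count that was 2 without the male MON pool and 1 in the fit of all 36 libraries. The main calls were 12.5% of this group toward UON and 25% toward MON. Scg2 itself was low, at 1.42 and 1.18 FPKM in UON and 0.415 and 0.227 FPKM in MON, and lost its call with the 4 nerve libraries alone (adjusted p = 0.128) and in the fit of all 36 (0.059).

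Markers of the retina and of other neighbouring tissues were summed in each pool. Those of inner retinal neurons summed to 25.3 and 21.2 FPKM in UON and 82.8 and 53.7 FPKM in MON, against 963 and 907 FPKM in retina. Of these 12 markers 2 were called toward UON (16.7%) and 3 toward MON (25%), beside 4.83% and 4.8% of all genes tested. Slc6a9, the glycine transporter given above, is in this list, and its call is among those toward MON. It made up most of the summed level in both MON pools. Photoreceptor markers summed to 45.7 and 37.2 FPKM in UON and 65.7 and 24.9 FPKM in MON, against 32675 and 31984 FPKM in retina. One of them, Rcvrn, recoverin, was called higher in MON at 0.566 and 0.144 FPKM in UON and 1.28 and 1.09 FPKM in MON (-1.86 ± 0.43), a call kept in 7 of 14 alternatives. Melanocyte and pigment epithelium markers summed to 4.86 and 8.35 FPKM in UON and 4.67 and 4.04 FPKM in MON, and Tyr, tyrosinase, was at 0 in the male UON pool and in both MON pools. None of the markers tested for skeletal muscle (8), blood (8) or adipocytes (3) was called. Surface epithelium markers summed to 3.59 and 55.7 FPKM in UON and 0.731 and 2.63 FPKM in MON, so the male UON pool stood apart, with Krt15 at 0.939 and 40.4 FPKM in UON and 0.463 and 1.21 FPKM in MON (4.01 ± 1.71, edgeR adjusted p = 0.207), a difference of -0.48 without that pool. Pkp1, a desmosomal protein, was the called member at 0.611 and 0.73 FPKM in UON and 0 and 0 FPKM in MON, a call kept in 13 of 14 alternatives. Its lower UON pool was about 3.95-fold above a floor of 3 read pairs (12 counts) in the shallower MON pool, an approximate value as for Wt1. The part of this epithelial RNA in the other differences was not tested. Rcvrn ranged, with 1 pool left out, from -2.86 without the female UON pool to -1.29 without the male UON pool on the log2 scale.

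Fibroblast markers were higher in UON where they were called. Of 18 markers of scleral and meningeal fibroblasts 17 were tested (median 2.17). Of the 17, 9 were called higher in UON (52.9%, beside 4.83% of all genes tested) and none higher in MON. The 18 markers summed to 913 and 827 FPKM in UON and 160 and 150 FPKM in MON. Col1a2, a chain of type I collagen, stood at 188 and 217 FPKM in UON and 18.5 and 14.7 FPKM in MON (3.53 ± 0.29, edgeR adjusted p = 0.00146), and held in every alternative. Slc6a13, a GABA transporter of meningeal fibroblasts, read 116 and 62.8 FPKM in UON and 4.11 and 12.9 FPKM in MON (3.55 ± 0.58, edgeR adjusted p = 0.0113) and Dcn, decorin, read 247 and 246 FPKM in UON and 81.1 and 48.7 FPKM in MON (1.87 ± 0.30, edgeR adjusted p = 0.0109). In the fit of all 36 libraries only 1 of the 9 calls remained, with adjusted p = 0.0807 for Slc6a13 and 0.107 for Dcn. Kera, a keratan sulfate proteoglycan of cornea and sclera, was too low to test. Slc6a13 ranged, with 1 pool left out, from 2.61 without the female MON pool to 4.71 without the male MON pool on the log2 scale.

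Smooth muscle cells and pericytes wrap the vessels and share contractile genes with other cells. Of 12 markers of pericytes and smooth muscle, Acta2, Tagln and Cnn1 were called higher in UON and the other 9 were not called (median 0.67). Those 3 calls were 25% of the markers, beside 4.83% of all genes tested. Cnn1, calponin, stood at 33.9 and 37.7 FPKM in UON and 0.15 and 0.324 FPKM in MON (7.28 ± 0.37, edgeR adjusted p = 0.00139), a 156-fold difference. Acta2, smooth muscle actin, read 37.1 and 37.8 FPKM in UON and 2.61 and 4.65 FPKM in MON (3.34 ± 0.30, edgeR adjusted p = 0.00161), and Tagln, transgelin, read 230 and 308 FPKM in UON and 10.7 and 25.7 FPKM in MON (3.92 ± 0.37, edgeR adjusted p = 0.00186). By contrast Myh11, the smooth muscle myosin, was at 0.131 and 0.14 FPKM in UON and 0.25 and 0.21 FPKM in MON (-0.83 ± 0.73, edgeR adjusted p = 0.551), and Des, desmin, at 0.922 and 1.25 FPKM in UON and 1.08 and 0.569 FPKM in MON (0.26 ± 0.69), both near the bottom of the scale in all 4 pools. None of 12 endothelial markers was called, with Pecam1 at 3.57 and 5.97 FPKM in UON and 4.72 and 4.32 FPKM in MON (-0.02 ± 0.34) and Cldn5 at 16.7 and 23.9 FPKM in UON and 13.7 and 18 FPKM in MON (0.28 ± 0.27).

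Genes that link the actin skeleton to the matrix were called mostly toward UON. Of 24 tested genes of focal adhesions and actin linkage, 11 were called higher in UON (45.8%) and 3 higher in MON (12.5%) (median 0.76). Over all genes tested the shares were 4.83% and 4.8%. In every alternative 10 of the calls in this group held. Vcl, vinculin, stood at 24.4 and 35.5 FPKM in UON and 4.6 and 6.27 FPKM in MON (2.41 ± 0.22, edgeR adjusted p = 0.00171), and Parva, a partner of integrin-linked kinase, at 61.3 and 56.8 FPKM in UON and 13.5 and 8.01 FPKM in MON (2.44 ± 0.30, edgeR adjusted p = 0.00424). Myl9, a regulatory myosin light chain, stood at 102 and 112 FPKM in UON and 24.4 and 29.7 FPKM in MON (1.92 ± 0.20, edgeR adjusted p = 0.00243). Tln2, a talin of neurons and muscle, was higher in MON at 2.29 and 2.63 FPKM in UON and 6.97 and 9.48 FPKM in MON (-1.58 ± 0.23, edgeR adjusted p = 0.00753), and it was the 1 gene called toward MON without the male MON pool. Of 16 mechanosensitive channels 1 was called toward UON (6.25%) and 2 toward MON (12.5%), beside 4.83% and 4.8% of all genes tested. The count toward MON fell when some single pools were left out. Trpm3, a heat and sterol sensitive cation channel, read 37.1 and 33.4 FPKM in UON and 2.41 and 3.89 FPKM in MON (3.67 ± 0.25, edgeR adjusted p = 0.00139), while Trpv4 read 2.31 and 2.3 FPKM in UON and 1.47 and 0.942 FPKM in MON (0.81 ± 0.47) and was not called.

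YAP and TAZ carry mechanical signals into the nucleus, where TEAD factors bind DNA. Of 19 tested genes of this group and its targets 6 were called higher in UON (31.6%) and none higher in MON (median 0.51). Over all genes tested 4.83% were called toward UON. The count in this group was lower without the male MON pool. Wwtr1, which is TAZ, stood at 32.7 and 20.8 FPKM in UON and 6.9 and 8.91 FPKM in MON (1.67 ± 0.26, edgeR adjusted p = 0.00896), and Ptpn14, an inhibitor of YAP and itself a target, at 5.67 and 4.6 FPKM in UON and 0.767 and 1.18 FPKM in MON (2.16 ± 0.34, edgeR adjusted p = 0.0095). Axl, a receptor kinase, stood at 87.6 and 88.2 FPKM in UON and 34.5 and 25.1 FPKM in MON (1.52 ± 0.26, edgeR adjusted p = 0.0131). Ccn1, a matrix-bound signal, stood at 30.2 and 50.2 FPKM in UON and 12.8 and 8.97 FPKM in MON (1.81 ± 0.36). Its call was lost in the fit of all 36 libraries (edgeR adjusted p = 0.0656), without the male UON pool and without the male MON pool. The letters GGAATG of a TEAD site lay in 14 of the 22 promoters of 17 genes of this list (63.6%), against 12.6% of all promoters. The list was made of these factors and their known targets, so its share says nothing about UON against MON. The markers of myelinating oligodendrocytes, all called higher in MON, had the letters in 5 of 20 promoters (25%). The stretches of 3 members of the YAP, TAZ and TEAD list called higher in UON are shown with the match in capitals (CATTCC is GGAATG on the other strand).
Ccn1: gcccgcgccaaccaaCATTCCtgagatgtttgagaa
Ptpn14: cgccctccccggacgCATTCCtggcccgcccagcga
Axl: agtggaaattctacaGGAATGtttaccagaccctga
In GRCm38.p6 the printed stretch of Ccn1 is chr3:145650068-145650103 (minus strand), that of Ptpn14 chr1:189728107-189728142 (plus strand) and that of Axl chr7:25788946-25788981 (minus strand). A match again describes letters and not binding. Ccn1 ranged, with 1 pool left out, from 1.17 without the male UON pool to 2.42 without the female UON pool on the log2 scale.

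Extracellular matrix surrounds the nerve in the sclera and meninges and underlies its vessels and glial border. Every called member of 3 matrix groups was higher in UON: 13 of 22 collagens (median 1.96), 20 of 34 matricellular and elastic fibre genes (1.65) and 10 of 26 basement membrane genes (1.33), beside 4.83% of all genes tested. Col9a1, a collagen of cartilage and vitreous, stood at 24.4 and 30.6 FPKM in UON and 2.66 and 2.51 FPKM in MON (3.34 ± 0.26, edgeR adjusted p = 0.00139), and Col12a1, which decorates fibrils under load, at 6.56 and 4.13 FPKM in UON and 1.1 and 0.54 FPKM in MON (3.19 ± 0.28, edgeR adjusted p = 0.00156). Ltbp1, which anchors latent TGF-beta, stood at 120 and 109 FPKM in UON and 7.27 and 3.94 FPKM in MON (4.43 ± 0.34, edgeR adjusted p = 0.00139), and Fbln5, which assembles elastic fibres, at 30.3 and 39.2 FPKM in UON and 0.962 and 1.72 FPKM in MON (4.61 ± 0.37, edgeR adjusted p = 0.00139). Col18a1, the source of endostatin, stood at 35.6 and 44.1 FPKM in UON and 3.41 and 2.1 FPKM in MON (3.83 ± 0.31, edgeR adjusted p = 0.00139), and Lamb2, a laminin chain, at 127 and 108 FPKM in UON and 33.1 and 22.4 FPKM in MON (2.09 ± 0.28). The fibroblast markers given above moved in the same direction, but they share members such as Col1a2 with the collagens, so the groups are not independent. The part of fibroblasts in these differences was not tested. Fbln5 ranged, with 1 pool left out, from 4.08 without the male MON pool to 5.34 without the female MON pool on the log2 scale.

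Proteoglycans and matrix enzymes were called in both directions. Of 30 proteoglycan genes 12 were called toward UON (40%) and 4 toward MON (13.3%), beside 4.83% and 4.8% of all genes tested. The count toward UON was 6 in the fit of all 36 libraries. Fmod, fibromodulin, stood at 219 and 311 FPKM in UON and 10 and 14.4 FPKM in MON (4.38 ± 0.42, edgeR adjusted p = 0.00194), and Gpc4, a glypican, at 23.9 and 25.3 FPKM in UON and 2.52 and 1.31 FPKM in MON (3.61 ± 0.37, edgeR adjusted p = 0.00236). Bcan, brevican, a proteoglycan of perinodal and perineuronal matrix, was higher in MON at 32 and 32.7 FPKM in UON and 107 and 91 FPKM in MON (-1.66 ± 0.24, edgeR adjusted p = 0.00679). Of 30 proteases and inhibitors 11 were called toward UON, among them Timp3 at 347 and 340 FPKM in UON and 95 and 54 FPKM in MON (2.16 ± 0.33) and Mmp19 at 23.3 and 30.2 FPKM in UON and 6.54 and 6.25 FPKM in MON (1.91 ± 0.23), and 2 toward MON, Adamts4 at 9.5 and 9.01 FPKM in UON and 69.3 and 53.2 FPKM in MON (-2.80 ± 0.38, edgeR adjusted p = 0.00565) and Adamts20 at 0.173 and 0.232 FPKM in UON and 6.27 and 2.29 FPKM in MON (-3.46 ± 0.48). The protease and inhibitor calls were 36.7% of that list toward UON and 6.67% toward MON, beside 4.83% and 4.8% of all genes tested. Of 24 tested integrins 5 were called toward UON (20.8%, beside 4.83% of all genes tested) and none toward MON. Only 1 of the 5, Itga5, held in every alternative, at 9.25 and 19.2 FPKM in UON and 2.3 and 1.54 FPKM in MON (2.66 ± 0.44). Gpc4 ranged, with 1 pool left out, from 3.08 without the male MON pool to 4.33 without the female MON pool, and Timp3 from 1.68 without the male MON pool to 2.75 without the female MON pool on the log2 scale. Itga5 ranged, with 1 pool left out, from 1.92 without the male MON pool to 3.62 without the female MON pool on the log2 scale.

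Retinoic acid, made from retinol, directs development of the eye and optic stalk. Of 17 retinoid pathway genes 11 were called higher in UON (64.7%, beside 4.83% of all genes tested) and none higher in MON (median 1.36). Fewer were called without the male UON pool, and 5 in the fit of all 36 libraries. Stra6, the receptor that takes up retinol, stood at 152 and 110 FPKM in UON and 9.83 and 14.7 FPKM in MON (3.39 ± 0.28, edgeR adjusted p = 0.00152), and Rarb, a retinoic acid receptor, at 29.6 and 29.2 FPKM in UON and 6.27 and 2.26 FPKM in MON (2.99 ± 0.49, edgeR adjusted p = 0.0116). Aldh1a2, which makes retinoic acid and is also listed as a meningeal fibroblast marker, stood at 116 and 83.3 FPKM in UON and 5.9 and 14.2 FPKM in MON (3.39 ± 0.42) and lost its call in the fit of all 36 libraries (adjusted p = 0.104). Rarb ranged, with 1 pool left out, from 2.17 without the male MON pool to 4.14 without the female MON pool, and Aldh1a2 from 2.55 without the female UON pool to 4.16 without the male UON pool on the log2 scale.

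Of 44 tested Wnt genes 17 were called higher in UON (38.6%) and 1 higher in MON (2.27%), with a median of 1.64. Over all genes tested the shares were 4.83% and 4.8%. In the fit of all 36 libraries 9 were called toward UON. Fzd1, a Frizzled receptor, stood at 72.4 and 111 FPKM in UON and 9.75 and 6.8 FPKM in MON (3.31 ± 0.42, edgeR adjusted p = 0.00439). The secreted inhibitors Dkk3 and Wif1 were higher as well, at 483 and 631 FPKM in UON and 105 and 67.5 FPKM in MON (2.64 ± 0.35, edgeR adjusted p = 0.00538) and 25.3 and 37.2 FPKM in UON and 5.45 and 1.88 FPKM in MON (3.15 ± 0.53, edgeR adjusted p = 0.0126), and so was the ligand Wnt5a at 10.5 and 13 FPKM in UON and 2.42 and 1.76 FPKM in MON (2.47 ± 0.50). Wnt3 was the ligand higher in MON, at 1.26 and 0.925 FPKM in UON and 9.08 and 11.1 FPKM in MON (-3.25 ± 0.40, edgeR adjusted p = 0.00392). The calls toward UON thus included some members that send, some that receive and some that block the signal. Fzd1 ranged, with 1 pool left out, from 2.65 without the male MON pool to 4.19 without the female MON pool, and Wif1 from 2.16 without the male MON pool to 4.29 without the female MON pool on the log2 scale. Wnt5a ranged, with 1 pool left out, from 1.75 without the male MON pool to 3.53 without the female MON pool on the log2 scale.

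Of 42 TGF-beta and BMP genes 10 were called toward UON and 3 toward MON (median 0.74), with 1 toward MON without the female UON pool, without the male UON pool and in the fit of all 36 libraries. The main calls were 23.8% of the list toward UON and 7.14% toward MON, beside 4.83% and 4.8% of all genes tested. Tgfb2 stood at 236 and 244 FPKM in UON and 49.9 and 43.7 FPKM in MON (2.42 ± 0.24, edgeR adjusted p = 0.0022), and Bmp7 at 89.7 and 48.8 FPKM in UON and 6.84 and 9.36 FPKM in MON (3.02 ± 0.32, edgeR adjusted p = 0.00251). Gdf10, a ligand of the same superfamily, stood at 92.7 and 109 FPKM in UON and 7.31 and 4.07 FPKM in MON (4.06 ± 0.42, edgeR adjusted p = 0.00243). Smad7, an intracellular brake on the pathway, was higher in MON at 1.17 and 1.12 FPKM in UON and 5.06 and 8.97 FPKM in MON (-2.58 ± 0.34, edgeR adjusted p = 0.00491). Of 38 tested growth factors and binding proteins 12 were called toward UON and 2 toward MON, with 6 toward UON and none toward MON in the fit of all 36 libraries and 1 or none toward MON without the female MON or male UON pool. The main calls were 31.6% of the growth factor list toward UON and 5.26% toward MON, the latter near the share of all genes tested. Ptn, pleiotrophin, was called in all 14 alternatives, as was Ednrb above, at 482 and 442 FPKM in UON and 144 and 167 FPKM in MON (1.48 ± 0.22, edgeR adjusted p = 0.00761). Gdf10 ranged, with 1 pool left out, from 3.41 without the male MON pool to 4.91 without the female MON pool on the log2 scale.

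Axon guidance genes were called in both directions. Among 39 ligands 7 were called in each direction (17.9% each way). Among 38 receptors 10 were called toward UON (26.3%) and 6 toward MON (15.8%). The shares of all genes tested were 4.83% and 4.8%. Slit2, a repellent, stood at 63.3 and 48.3 FPKM in UON and 10.9 and 8 FPKM in MON (2.77 ± 0.25, edgeR adjusted p = 0.00173). Sema4d, Efnb3 and Omg, all known from oligodendrocytes or myelin, were higher in MON, with Sema4d at 32.7 and 28.2 FPKM in UON and 249 and 251 FPKM in MON (-2.93 ± 0.21, edgeR adjusted p = 0.00139), Efnb3 at 13.3 and 9.82 FPKM in UON and 132 and 132 FPKM in MON (-3.60 ± 0.24) and Omg at 5.89 and 4.9 FPKM in UON and 63.7 and 46.5 FPKM in MON (-3.41 ± 0.22). Of the Eph receptors, Epha3, Ephb2 and Ephb3 were higher in UON (4.13 ± 0.49, 2.51 ± 0.26 and 2.43 ± 0.34) and Ephb1 higher in MON at 4.3 and 4.89 FPKM in UON and 33.4 and 33.4 FPKM in MON (-2.92 ± 0.23, edgeR adjusted p = 0.00139). The count of ligands toward UON was 14 with DESeq2 and 4 in the fit of all 36 libraries, that of ligands toward MON was 4 without the female MON pool, and that of receptors toward UON was 6 without the male MON pool. Epha3 ranged, with 1 pool left out, from 3.45 without the female UON pool to 4.73 without the male UON pool on the log2 scale.

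Transcription factors of the eye field and optic stalk were mostly low. Of 42 listed 38 were tested (median 1.18). Of these, 6 were called toward UON (15.8%) and 2 toward MON (5.26%), beside 4.83% and 4.8% of all genes tested. Over the 14 alternatives the count toward UON ranged from 2 in the fit of all 36 libraries to 16 with DESeq2. Six6, a factor of ventral retina and optic nerve, held in every alternative at 8.06 and 10.7 FPKM in UON and 2.89 and 3.22 FPKM in MON (1.54 ± 0.23, edgeR adjusted p = 0.00804). Pax2, the factor of the optic stalk and its astrocytes, read 1.66 and 2.38 FPKM in UON and 0.504 and 1.03 FPKM in MON (1.56 ± 0.60, edgeR adjusted p = 0.166), and Vax1 read 0.0686 and 0.393 FPKM in UON and 0.0404 and 0.256 FPKM in MON (0.49 ± 2.30), neither of them called. Sox1, a neural progenitor factor without a count in UON, stood at 0 and 0 FPKM in UON and 0.619 and 1.3 FPKM in MON and was at least 13.5-fold higher in MON against the same count floor, and lost its call without the male MON pool (adjusted p = 0.0989) and in the fit of all 36 libraries (0.14).

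Of 17 microglial markers 1 was called in each direction (5.88% each way, near the 4.83% and 4.8% of all genes tested), with a median of -0.85. The count toward MON was 5 without the female MON pool, 3 without the female UON pool and none without either male pool or in the fit of all 36 libraries. Not called were C1qa at 91.2 and 81.3 FPKM in UON and 124 and 209 FPKM in MON (-1.0 ± 0.28, edgeR adjusted p = 0.0691), Tmem119 at 37.6 and 23.3 FPKM in UON and 58.5 and 53.1 FPKM in MON (-0.96 ± 0.29) and P2ry12 at 15.3 and 8.9 FPKM in UON and 28.8 and 12.1 FPKM in MON (-0.60 ± 0.37). Cx3cr1, the fractalkine receptor, went against the rest at 21 and 15 FPKM in UON and 1.34 and 5.45 FPKM in MON (2.60 ± 0.60, edgeR adjusted p = 0.0394), and its call was lost in the fit of all 36 libraries (adjusted p = 0.269), with library totals (0.0547) and with a minimum count of 50 (0.0604). Of 21 complement genes 4 were called toward UON (19%) and 1 toward MON (4.76%), and the count toward MON was 4 without the female MON pool and none without either male pool. The members toward UON included C1s1 at 11.9 and 8.54 FPKM in UON and 0.87 and 0.957 FPKM in MON (3.89 ± 0.33, edgeR adjusted p = 0.00156) and C2 at 45.1 and 27.3 FPKM in UON and 2.88 and 5.28 FPKM in MON (3.57 ± 0.42, edgeR adjusted p = 0.0035). Of 21 tested chemokines and cytokines 3 were called toward UON (14.3%) and 1 toward MON (4.76%). Il34, a ligand that maintains microglia, was higher in UON at 64.6 and 77.1 FPKM in UON and 15.5 and 23.7 FPKM in MON (2.08 ± 0.26, edgeR adjusted p = 0.00424), and Il33, an alarmin of oligodendrocytes and astrocytes, was higher in MON at 46.4 and 35.5 FPKM in UON and 209 and 155 FPKM in MON (-2.32 ± 0.23, edgeR adjusted p = 0.0023). Cx3cr1 ranged, with 1 pool left out, from 1.59 without the female MON pool to 3.92 without the male MON pool, and C2 from 2.77 without the female UON pool to 4.27 without the male UON pool on the log2 scale.

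Barrier genes of the vessels were tested because the vessels near the eye wall are known to leak. Of 16 such genes 4 were called higher in UON (25%, beside 4.83% of all genes tested) and none higher in MON (median 0.75). Fewer were called without the male UON pool. Slco1c1, a thyroid hormone and anion transporter of brain endothelium and astrocytes, stood at 43.2 and 48.1 FPKM in UON and 1.79 and 2.82 FPKM in MON (4.21 ± 0.23, edgeR adjusted p = 0.00139), and Slc7a5, an amino acid transporter, at 40.1 and 49.7 FPKM in UON and 12 and 9.84 FPKM in MON (2.01 ± 0.26, edgeR adjusted p = 0.00503). Plvap, a protein of fenestrated and leaky endothelium, was at 1.5 and 2.31 FPKM in UON and 2.59 and 6.12 FPKM in MON (-1.19 ± 0.45, edgeR adjusted p = 0.157), and Mfsd2a, a lipid transporter of the tight barrier, at 8.12 and 13.7 FPKM in UON and 17.1 and 17.9 FPKM in MON (-0.73 ± 0.34, edgeR adjusted p = 0.255). Neither of the latter was called.

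Genes at loci linked to human glaucoma were listed because the unmyelinated stretch is where axons are injured in that disease. Of 31 tested 10 were called higher in UON and none higher in MON (median 1.19, beside 4.83% of all genes tested called in that direction), and the count was 6 without the male MON pool. Efemp1, a fibulin, stood at 123 and 88.4 FPKM in UON and 5.36 and 9.11 FPKM in MON (3.86 ± 0.31, edgeR adjusted p = 0.00141), and Fndc3b at 7.43 and 7.48 FPKM in UON and 2.43 and 1.83 FPKM in MON (1.68 ± 0.26, edgeR adjusted p = 0.00855). Abca1 and Six6, given above, were the other members that held in every alternative. Optn, optineurin, was not called at 9.5 and 9.31 FPKM in UON and 13.7 and 9.43 FPKM in MON (-0.36 ± 0.25), nor was Myoc, myocilin, at 0 and 0.14 FPKM in UON and 0.465 and 0.753 FPKM in MON (-3.32 ± 2.30). Among 16 housekeeping genes 1 was called in each direction (6.25% each way, near the 4.83% and 4.8% of all genes tested), with a median of -0.11.

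**Figure D4:**
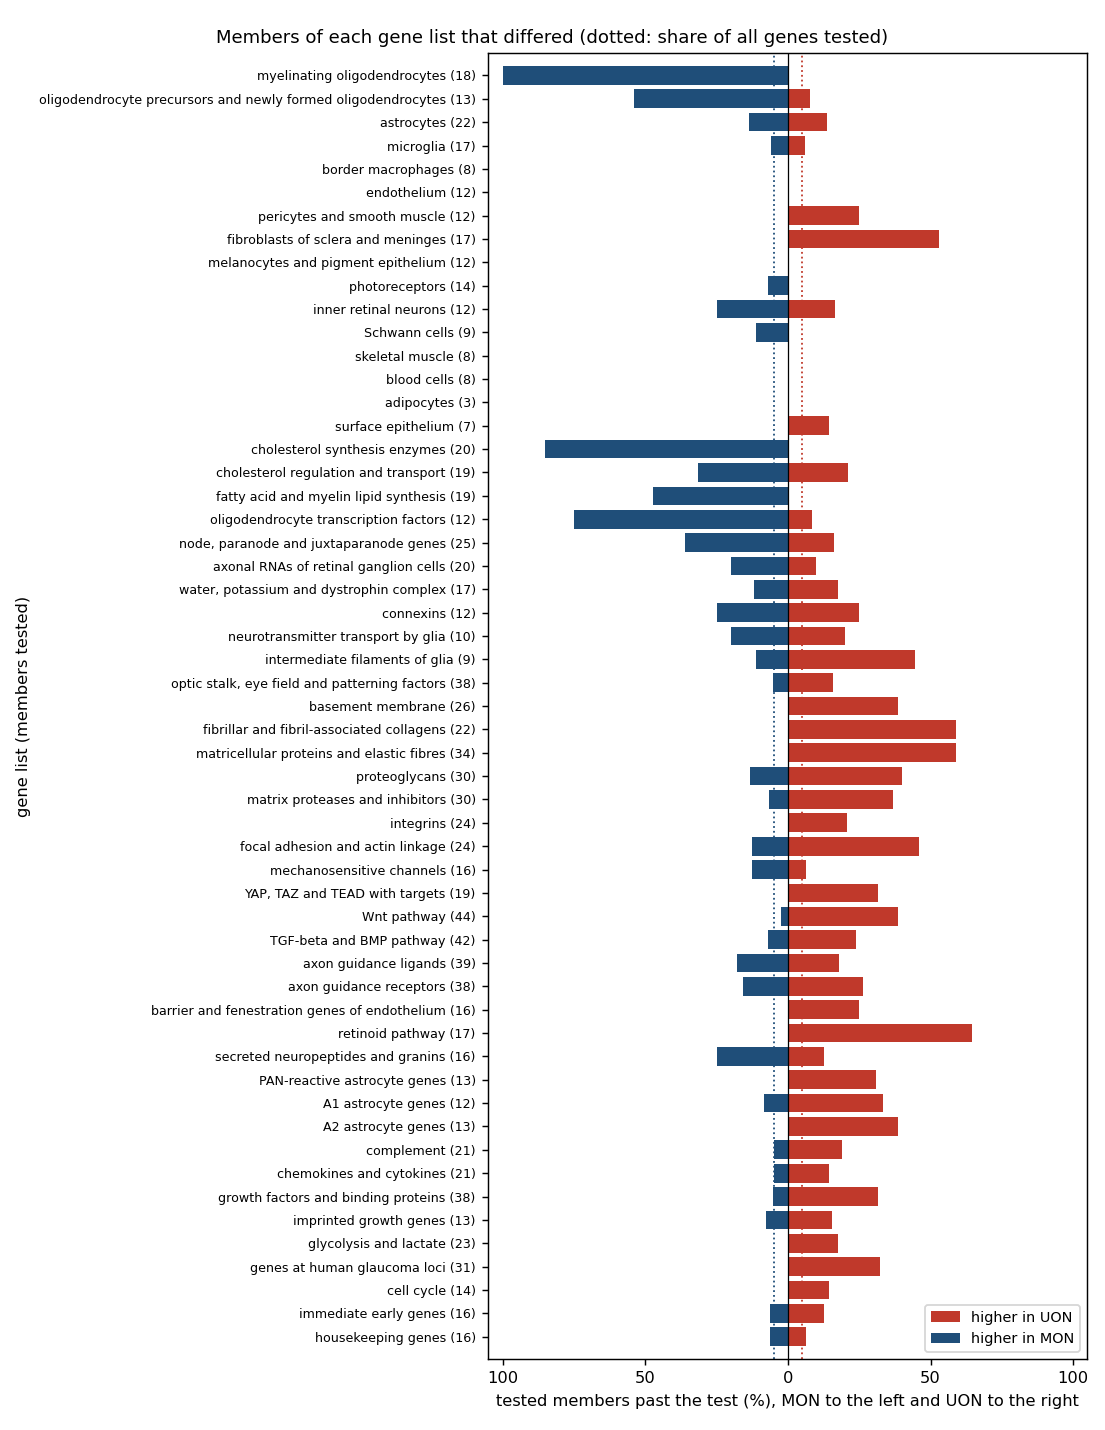
Share of the tested members of each of the 55 gene lists that was called, in percent, with members higher in MON drawn to the left in blue and members higher in UON to the right in red. The number tested stands after each name, the dotted lines are the shares over all genes tested (4.8% and 4.83%), and the myelinating oligodendrocyte bar reaches 100% on the MON side.

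The injured animals of the series gave libraries that the calls above did not use: 10 of UON and 10 of MON, in 5 groups of crush or glaucoma. Of the 1144 genes called higher in naive UON, 807 (70.5%) were higher in UON in all 5 groups and 2 were lower in all 5, while 3088 of all genes tested (13%) were higher in all 5. Of the 1137 called higher in naive MON, 907 (79.8%) were higher in MON in all 5 groups, against 3851 of all genes tested (16.3%). All 10 injured UON libraries lay above all 10 injured MON libraries for 230 of the first set (20.1%), beside 1.54% of all genes tested, and below them for 358 of the second (31.5%), beside 1.99%. Cartpt differed by 8.0 in these libraries on the log2 CPM scale, Mog by -3.09 and Hmgcs1 by -2.26. For 2 genes chosen after their values were seen, the naive and injured values stood apart: Cx3cr1 read 2.60 ± 0.60 and -0.55, and Msn, a linker of membrane and actin, read 1.57 ± 0.31 and 0.14.

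**Figure D5:**
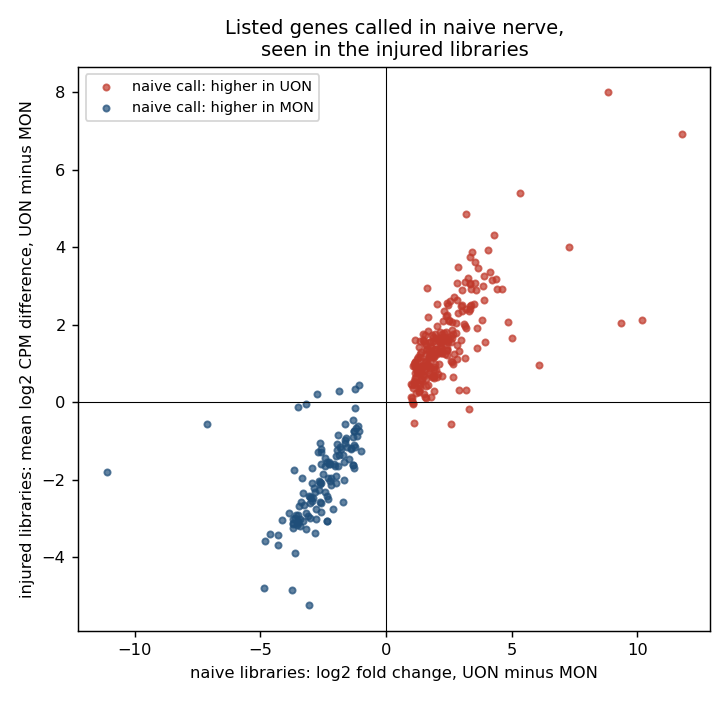
Log2 difference of UON minus MON in the naive libraries (horizontal axis) against the mean difference over the 5 groups of injured libraries (vertical axis), for the 359 listed genes called in the naive comparison. Red points were called higher in naive UON, of which 230 of 235 lie above 0 in the injured libraries, and blue points higher in naive MON, of which 120 of 124 lie below 0.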

How the data were processed

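RNA of unmyelinated optic nerve, myelinated optic nerve and retina was measured by bulk RNA sequencing, with 1 library per pool of 2 mice of 1 sex. Per the labels and the study's methods, the authors aligned reads with HISAT2 2.2.1 to GRCm38, assembled transcripts with StringTie 1.3.0 against Gencode M25, and deposited per gene estimated counts from the StringTie coverage and FPKM values for each library. Because the counts derive from coverage, a read pair adds about 4 counts, which raises the totals without adding precision. The count table was fitted with edgeR 4.0.16 (quasi-likelihood, TMM scaling, limma 3.58.1, R 4.3.3) over the 6 naive libraries, with tissue and sex as terms and genes of at least 10 counts (total of at least 15) kept. A call needed an adjusted p under 0.05 (Benjamini-Hochberg) and a log2 fold change over 1. FPKM values are given per pool and tested only as an alternative, as log2(FPKM + 1) with limma. Tissue samples came from the same mice, so the sex term also pairs UON with MON. The deviations of the paired libraries correlated at -0.0529, and the pairing rests on the shared mice, not on this value.

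The 14 alternatives were DESeq2 1.42.0, other scalings, other filters, no sex term, other sets of libraries, counts divided by 4, limma on FPKM and leaving out each nerve library. The lists and members were chosen with earlier results of these data known, and examples within lists were taken mostly from genes whose call held in all 14 alternatives, after their values were seen. Other named genes were the 12 with the largest fold and the 12 with the highest mean CPM in the higher tissue, in each direction among those called. Both rankings left out clone and predicted names and required the same direction in both sexes. The ranking by fold also required a minimum CPM in both pools of the higher tissue, so called genes with larger folds but low levels are not in it. The fit was tested on simulated counts with 200 changed genes, and promoter sequences came from RefSeq (GRCm38.p6). With 2 pools a group, p-values rest on 2 residual degrees of freedom and on an estimate of spread shared across genes. Some members of the lists are counted but not reported here by name.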

Additional observations from a re-analysis of the deposited data

Results flagged for a closer look

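Bmp4, a signal that restrains oligodendrocyte differentiation, differed in opposite directions in the female and male pools. Female UON was above female MON by 1.84 on the scale of log2(CPM + 0.5), where CPM is counts scaled to library size, with 14.3 against 3.62 CPM, while male UON was below male MON, with 5.77 against 14.9 CPM. With 1 pool per sex and tissue the difference between the sexes was not tested, and sex and pool cannot be told apart.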

How the results depend on the processing

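DESeq2 called 1845 genes toward UON and 1848 toward MON where edgeR called 1144 and 1137, and the cause was not tested. Leaving out 1 nerve library at a time gave 853 to 1709 genes higher in UON and 930 to 1504 higher in MON. Without the sex term, and so without the pairing of tissues from the same mice, the counts were 1148 and 1238. In the other alternatives both counts stayed within 1.5 times those of the main analysis, and 414 genes toward UON and 462 toward MON were called in all 14. No gene named with a call reversed its direction in any alternative run, while 6 named genes without a call (Bmp4, Des, Krt15, Nefl, Optn and Pecam1) changed sign in at least 1. Sox1 could not be tested with limma on FPKM because it did not pass the filter on low FPKM. Of the gene and setting pairs that lost a call, 17 came from the fit of all 36 libraries, 13 from leaving out the male UON pool and 12 from leaving out the male MON pool. The male MON pool, with 17757595 counts the shallowest of the 4, limits what could be found at low level there. The male UON pool had counts for the fewest genes, 23120. The female UON, female MON and male MON pools had 30367, 28930 and 27134. Zeros and low values in the male UON pool carry the same limit, and the cause of its lower number was not tested.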
